A study of Danio rerio with 18 samples.

Results

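Tubulin transcripts were examined in the NMLF, the nucleus of the medial longitudinal fascicle, whose midbrain neurons send axons into the zebrafish spinal cord and regrow them after the cord is cut. The genes described are 3 alpha tubulins (tuba1b, tuba8l4 and tuba2) and 1 beta tubulin (tubb5), which GEO's annotation of the array pairs with 8 of the 15502 probe sets tested. A probe set is a group of short probes that together are meant to report 1 transcript. The 4 genes were chosen by their response to injury on these same arrays. For tuba1b, tubb5 and tuba8l4 that was the difference between transected and sham fish at 11 d, and for tuba2 the value that chose it is not recorded. Differences that may have chosen a gene are therefore given without a test.

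The study used 18 Affymetrix arrays in 6 groups of 3: laser-captured NMLF tissue of sham-operated fish and of fish with a transected spinal cord, each at 4 h, 12 h and 11 d after surgery. The design separates early events from the period of axon regrowth. All fish had surgery, and no allele, strain, age or sex is named for any group. The RNA was amplified before hybridization, and the labels do not say how many fish gave tissue to an array or whether fish were pooled, so p-values measure only the spread between these samples, which may be technical. In captured tissue, fewer cells of a type and less RNA per cell cannot be told apart.

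Microtubules are hollow polymers of paired alpha and beta tubulin, and they form the tracks and the core of an axon. Vertebrates carry several alpha and several beta tubulin genes whose proteins differ little over most of their length, and nerve cells use a changing mix of them during axon growth and in the mature state. In fish, an alpha tubulin gene of the tuba1 group is known to be switched on again when retinal neurons regrow the optic nerve. Newly made tubulin is folded by chaperones and cofactors, and microtubule-associated proteins, motors, and enzymes that modify tubulin act on the finished polymer.

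Within groups, array pairs correlated at 0.936 to 0.984, and 0 pairs of arrays held identical values. The 2 arrays numbered 3 at 11 d stood apart from the other 11 d arrays on the first principal component (29.2% of the variance), at 20.1 and 28.3 against -43.0 to -28.8. At 4 h the 2 arrays numbered 1 stood apart from the other 4 h arrays, at -22.1 (sham) and -29.7 (transected) against 12.3 to 48.4. The GAPDH controls gave a ratio of 3' to 5' signal, a measure that goes up with RNA breakage, of 3.15 to 5.40 on the 12 h arrays and 1.39 to 2.88 on all others. Signals below are quantile-normalized with a floor of 16, group levels are geometric means, differences are log2 of transected over sham with SEs from one limma fit to all 18 arrays, and probe sets are not compared with each other in level. Neuronal marker genes, 14 measured of 26 listed, gave a summed signal of 17950 to 34020 over all arrays. Among them snap25a, a synaptic protein gene, had a geometric mean of 4718. These genes mark nerve cells in general, and no other tissue was compared, so they do not check the NMLF label.

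At 11 d, 4 of the 7 member probe sets that rose above the floor on any array were higher on all 3 transected arrays than on any sham array, and 0 were lower in that way. Over all probe sets tested, 2.73% were separated upward and 2.99% downward at 11 d. These 4 probe sets are those of tuba1b (both), tubb5 (the brighter one) and tuba8l4, and that contrast chose these genes, so nothing is read from their count. The brightest probe set of tubb5 differed by 1.75 ± 0.43 and that of tuba1b by 1.50 ± 0.31, whereas tuba8l4 differed by 0.43 ± 0.11 and the brightest tuba2 probe set by 0.12 ± 0.23. No member probe set was lower in transected than in sham fish at 11 d by its group mean, so none of these 4 genes fell at that time. That contrast chose 3 of the 4, so nothing is read from this for tubulins in general, and other tubulins are described below. The only member whose transected arrays all lay below the sham arrays at any time was tuba2, on 1 of its probe sets and at 4 h.

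**Figure D1:**
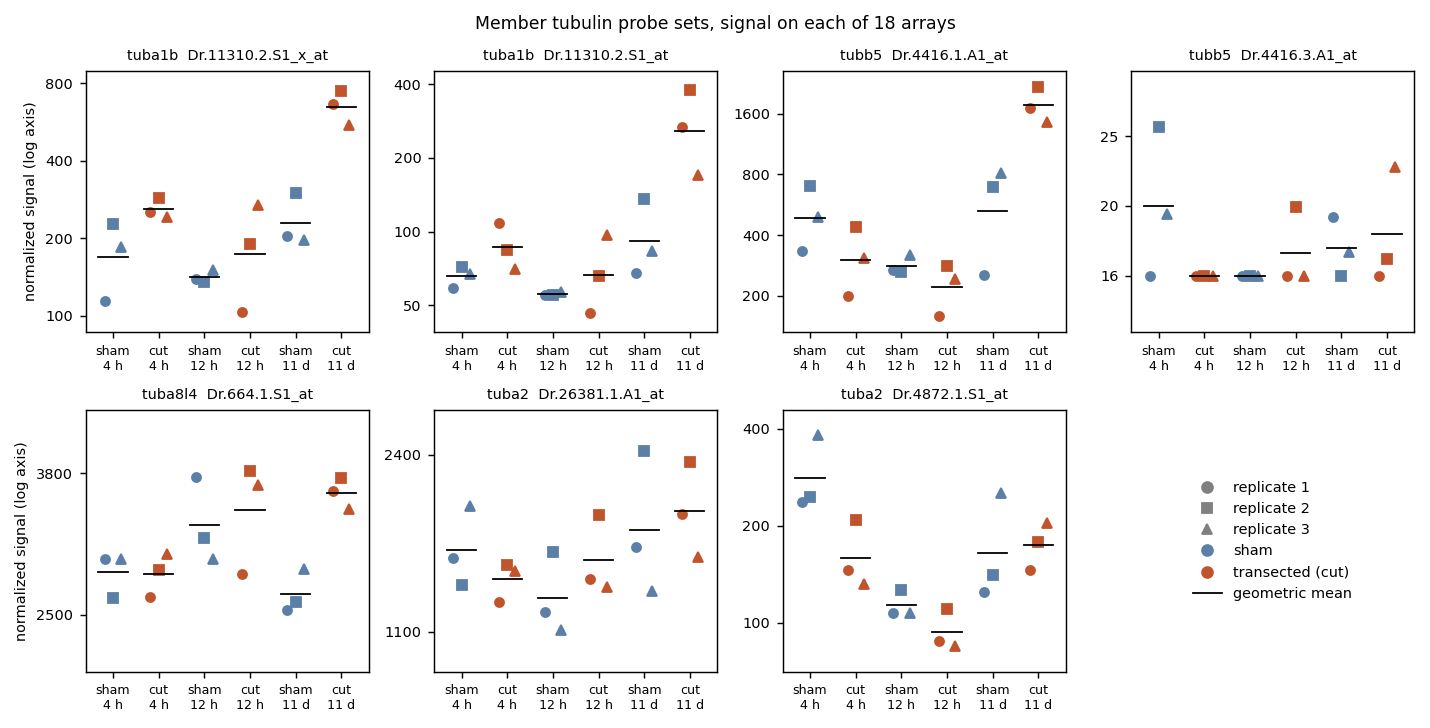
Normalized signal (log axis) of the 7 member probe sets that exceeded the floor, on each of the 18 arrays, with sham in blue, transected (cut) in red, replicate number by symbol and the geometric mean as a bar. Both tuba1b probe sets and the brighter tubb5 probe set stand highest in transected fish at 11 d, and tuba2 Dr.4872.1.S1_at stands highest in sham fish at 4 h.

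The alpha tubulin gene tuba1b was read by 2 probe sets annotated to it alone. At 4 h, the brighter one, Dr.11310.2.S1_x_at, gave normalized signals of 114, 228 and 184 on the sham arrays and 252, 286 and 241 on the transected arrays. At 12 h the values were 138, 135 and 150 in sham and 103, 189 and 268 in transected fish. The transected arrays thus lay above all sham arrays at 4 h, and overlapped them at 12 h, where the transected arrays alone were widely scattered.

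Neither early difference of tuba1b passed the test. At 4 h the difference was 0.62 ± 0.31 (95% interval -0.06 to 1.30, limma adjusted p = 1, n = 3 and 3), and 0.34 without the first sham array at 4 h. All 3 same-numbered pairs were higher, as were those of 10% of all probe sets. Upward separation of the groups was seen for 2.67% of all probe sets at 4 h, and 0% passed the adjusted test. At 12 h it was 0.30 ± 0.31 (95% interval -0.38 to 0.98, limma adjusted p = 1), and -0.01 without the third transected array at 12 h.

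At 11 d the sham arrays gave 204, 299 and 197 for this probe set, and the transected arrays 662, 746 and 550. All transected arrays stood clear of all sham arrays, and above each of the other 15 arrays of the series. The group means of 229 and 648 differed 2.83-fold. Within the same-numbered pairs the log2 differences were 1.70, 1.32 and 1.48, so the pairs varied little (SD 0.19).

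The second tuba1b probe set, Dr.11310.2.S1_at, is drawn from the same target and is not an independent reading. It gave 67.8, 136 and 83.2 in sham and 267, 379 and 170 in transected fish at 11 d, a difference of 1.50 ± 0.33. Its early differences were 0.40 ± 0.33 at 4 h and 0.26 ± 0.33 at 12 h (limma adjusted p = 1 for each), with overlapping groups. Over the 18 arrays the 2 probe sets correlated at r = 0.953, a description of arrays that share groups.

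Another 3 probe sets carry the symbol of tuba1b together with that of tuba1a or tuba1c, its neighbours on the same chromosome in RefSeq's gene table. Because each has 2 symbols, none is assigned to a gene. At 11 d they differed by 0.17 ± 0.20 (Dr.11310.1.S1_at), 0.49 ± 0.35 (Dr.11310.3.S1_at) and 0.22 ± 0.29 (Dr.11310.3.S1_x_at), with overlapping groups. Their signals ran from 419 to 4747 over the arrays. The large 11 d difference therefore belonged to the probe sets annotated to tuba1b alone, and whether related transcripts bind to those probes was not tested, since no probe sequence was used here.

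The alpha tubulin gene tuba8l4, with 1 probe set (Dr.664.1.S1_at), varied least of the members. Sham arrays gave 2949, 2626 and 2949 at 4 h and transected arrays 2634, 2851 and 2989. At 12 h they gave 3765, 3134 and 2949 in sham and 2822, 3823 and 3676 in transected fish. The groups overlapped at both times, and the differences were -0.01 ± 0.11 (95% interval -0.26 to 0.24) at 4 h and 0.06 ± 0.11 (-0.18 to 0.31) at 12 h, both with a limma adjusted p of 1.

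At 11 d the tuba8l4 signals were 2532, 2592 and 2859 in sham and 3602, 3745 and 3417 in transected fish. No sham array reached the lowest transected array, and the group means differed 1.35-fold. The transected level at 11 d was not the highest value seen for the gene: single arrays at 12 h reached 3765 in sham and 3823 in transected fish. Ordered by mean, the 6 groups ran from transected 11 d (3586) through transected and sham 12 h (3410 and 3264), sham and transected 4 h (2837 and 2821) to sham 11 d (2657), and each neighbour in this order overlapped the next.

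The alpha tubulin gene tuba2 was covered by 3 probe sets that did not behave alike. The brightest, Dr.26381.1.A1_at, gave 1521, 1350 and 1911 in sham and 1252, 1479 and 1439 in transected fish at 4 h. Its 12 h values were 1202, 1565 and 1106 in sham and 1390, 1838 and 1341 in transected fish. At 11 d they were 1601, 2438 and 1317 against 1847, 2325 and 1532. Sham and transected arrays overlapped at every time, and the differences of -0.19 ± 0.23, 0.24 ± 0.23 and 0.12 ± 0.23 were all within 1.1 times their SEs.

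The probe set Dr.4872.1.S1_at of tuba2 gave 236, 245 and 381 in sham and 145, 208 and 132 in transected fish at 4 h. All transected arrays lay below all sham arrays, by -0.82 ± 0.27, or 1.77-fold on the group means. Downward separation was seen for 1.88% of all probe sets at 4 h. At 12 h it gave 107, 126 and 108 in sham and 87.7, 111 and 84.5 in transected fish, and at 11 d 124, 140 and 253 against 146, 178 and 204. The groups overlapped at both later times, with differences of -0.27 ± 0.27 and 0.09 ± 0.27. The third probe set, Dr.4872.2.A1_at, lay at the floor on all 18 arrays.

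The 2 readable probe sets of tuba2 correlated at only r = 0.233 over the 18 arrays. Both had a lower mean in transected fish at 4 h and a higher one at 11 d, and at 12 h their differences had opposite signs. Sham and transected arrays separated on the dimmer probe set alone, and at 4 h alone.

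The beta tubulin gene tubb5 was the one member with all same-numbered pairs lower after transection at 4 h and all higher at 11 d. At 4 h its brighter probe set, Dr.4416.1.A1_at, gave 335, 700 and 494 in sham and 199, 440 and 308 in transected fish. The groups overlapped, because the level moved with the replicate number in both, but each transected array was lower than its same-numbered sham array, by -0.75, -0.67 and -0.68. The mean difference of -0.70 ± 0.43 (95% interval -1.63 to 0.23) did not pass (limma adjusted p = 1, and 0.901 with the replicate number as a block). Of all probe sets, 9.33% were lower in all 3 pairs at 4 h, and 1.09% were lower in all pairs at 4 h and higher in all at 11 d. The 11 d part of that pattern was fixed by the choice of tubb5, so nothing is read from this share.

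At 12 h tubb5 gave 268, 263 and 319 in sham and 158, 280 and 241 in transected fish, which overlapped. The difference was -0.36 ± 0.43 (95% interval -1.29 to 0.57, limma adjusted p = 1). At 11 d the sham arrays spread widely, at 254, 692 and 817, while the transected arrays gave 1712, 2179 and 1460. All transected arrays were above every other array of the series, and the group means of 524 and 1759 differed 3.36-fold.

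The size of the 11 d difference of tubb5 depended on the first sham array. Its pairs differed by 2.75, 1.65 and 0.84, and without that array the difference was 1.23. A second tubb5 probe set, Dr.4416.3.A1_at, did not exceed 25.7 on any array and lay at the floor of 16 on most. It differed by -0.32 ± 0.16, 0.11 ± 0.16 and 0.07 ± 0.16 at the 3 times, and no direction is read from values this near the floor.

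**Figure D2:**
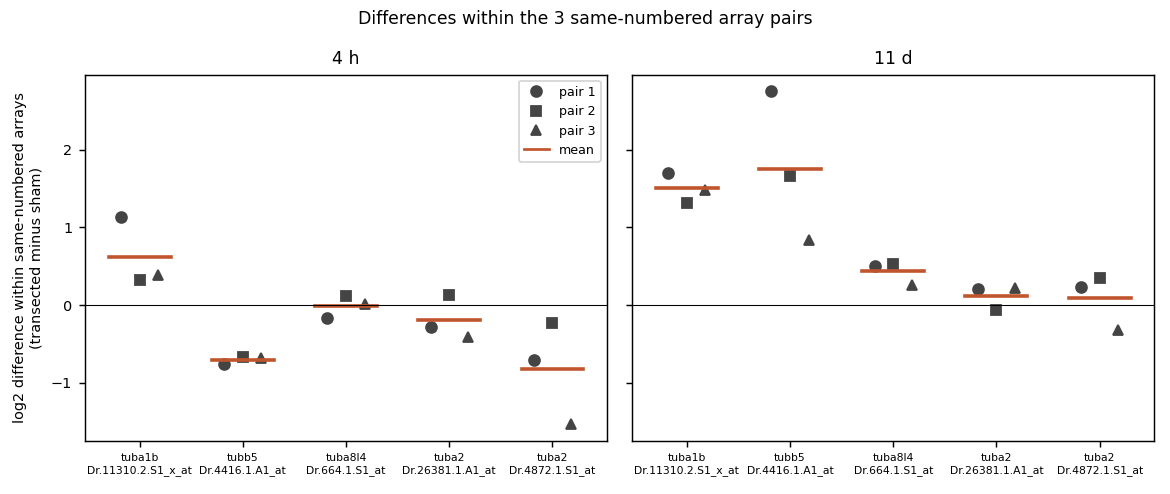
Log2 difference between same-numbered transected and sham arrays at 4 h and 11 d for the brightest probe set of each member and the second tuba2 probe set, with the mean as a red bar. The 3 pairs of tubb5 lie close together below 0 at 4 h (-0.75 to -0.67) and spread from 0.84 to 2.75 at 11 d, and those of tuba1b lie above 0 at both times.

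Of the 5 member probe sets of tuba1b, tubb5 and tuba8l4, 0 passed limma's test at 4 h or at 12 h, and 0 had an unadjusted p under 0.05. Over all 15502 probe sets, 0 (0%) passed at 4 h and 4 (0.0258%) at 12 h, and 2.27% and 4.61% had an unadjusted p under 0.05. Few probe sets of any kind were thus called at the early times with 3 arrays a group.

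Set against each other within an array, the isotypes changed unequally. The log2 ratio of tuba1b to tuba2, each by its brightest probe set, was -2.97, -3.03 and -2.74 on the 11 d sham arrays and -1.48, -1.64 and -1.48 on the 11 d transected arrays. It did not overlap between the groups and was 1.38 higher after transection, a 2.60-fold change of the ratio. The ratio of tubb5 to tuba2 was -2.65, -1.82 and -0.69 in sham and -0.11, -0.09 and -0.07 in transected fish at 11 d, so it was nearly the same on all 3 transected arrays and scattered over the sham arrays. The tuba8l4 to tuba2 ratio overlapped between sham (0.66, 0.09 and 1.12) and transected fish (0.96, 0.69 and 1.16). The 11 d difference chose tuba1b, tubb5 and tuba8l4, so these 11 d ratios are a description and nothing is read from their separation.

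For the pair with the larger 11 d differences, the beta to alpha ratio is tubb5 over tuba1b. It separated the groups at 4 h and 12 h and not at 11 d. At 4 h it was 1.55, 1.62 and 1.43 in sham and -0.34, 0.62 and 0.35 in transected fish. At 12 h it was 0.96, 0.96 and 1.09 against 0.62, 0.57 and -0.15. The transected arrays were below all sham arrays at both times, by -1.32 and -0.66 on average. At 11 d the transected arrays, at 1.37, 1.55 and 1.41, lay within the range of the sham arrays, 0.32 to 2.05. Those sham arrays scattered more (SD 0.87) than the sham arrays at 4 h (SD 0.10). A ratio within an array shows unequal change of 2 signals and not which of them changed, and since the 11 d values chose both genes, these ratios carry no test. How often the ratios of other probe set pairs separate the groups was not computed.

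**Figure D3:**
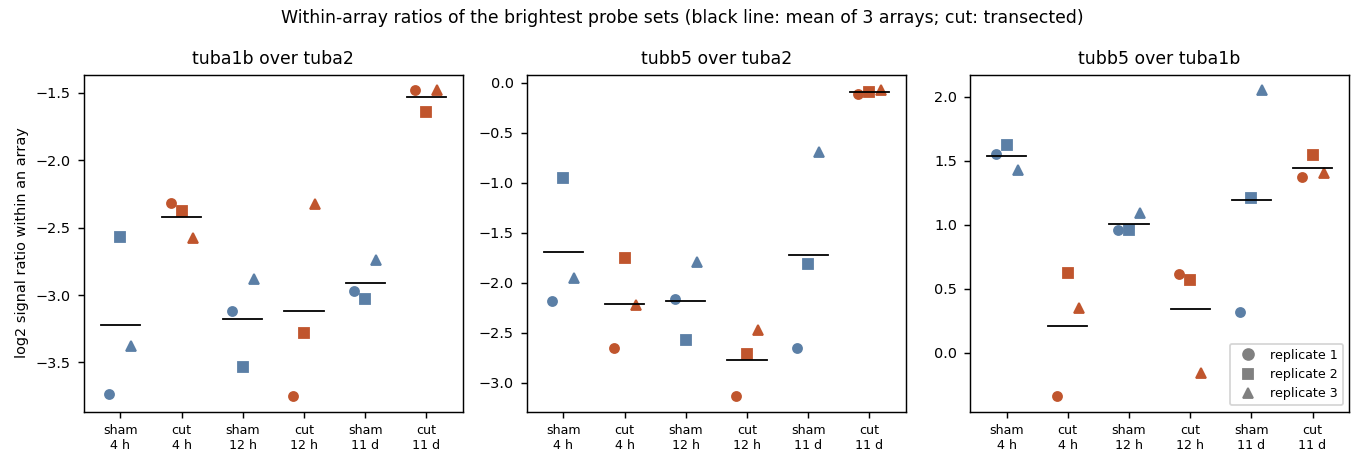
Log2 ratio, within each of the 18 arrays, of the brightest probe sets of tuba1b over tuba2, tubb5 over tuba2 and tubb5 over tuba1b, with sham in blue, transected (cut) in red and the mean of 3 arrays as a bar. At 11 d the transected arrays lie above all sham arrays in the first 2 panels, and in the third panel they lie below all sham arrays at 4 h and 12 h and within them at 11 d.

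Ordered by group mean, tuba1b (Dr.11310.2.S1_x_at) ran from transected 11 d (648) through transected 4 h (259), sham 11 d (229), transected 12 h (174) and sham 4 h (169) to sham 12 h (141). Only the first step, of 1.32, was free of overlap. For tubb5 the order was transected 11 d (1759), sham 11 d (524), sham 4 h (488), transected 4 h (300), sham 12 h (282) and transected 12 h (220), and again the first step alone, of 1.75, did not overlap. The brightest tuba2 probe set ran from transected 11 d (1874) to sham 12 h (1276) with every neighbour overlapping. Its second probe set was highest in sham fish at 4 h (280.5) and lowest in transected fish at 12 h (93.6). Neighbouring groups did not overlap below the first and below the fourth group, but groups further apart did. A sham array at 11 d gave 253, above the lowest sham array at 4 h (236).

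Between 4 h and 12 h, 6 of the 7 member probe sets had a lower mean in sham fish at 12 h, and 4 of 7 in transected fish. Over all 15502 probe sets, 6515 had a lower and 6270 a higher mean at 12 h in sham fish. In transected fish the counts were 6541 and 6315. The rest had equal means, among them 2009 at the floor on all arrays, a kind left out of the 7 members. For the tuba2 probe set Dr.4872.1.S1_at the difference was -1.31 ± 0.27 in sham fish and -0.76 ± 0.27 in transected fish, without overlap in either arm. No test is given for tuba2 here, since the 4 h arrays may have chosen it. For tubb5 the difference was -0.79 ± 0.43 in sham fish (limma adjusted p = 0.891) and -0.44 ± 0.43 in transected fish (0.801). Downward separation was seen for 4.4% of all probe sets in sham and 9.33% in transected fish.

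None of the probe sets of tuba1b, tubb5 and tuba8l4 passed this comparison. Over all probe sets 0.0258% passed in sham fish and 1.23% in transected fish. An unadjusted p under 0.05 was seen for 5.8% of all probe sets in sham and 13.6% in transected fish. No count of members by p-value is set beside these shares, since tuba2 has no test. The GAPDH ratio also moved between these times, from geometric means of 1.65 and 1.89 at 4 h to 3.99 and 4.61 at 12 h, and its part in the time differences was not tested. Sham and transected fish of the same time had similar ratios.

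The other tubulins on the array, 12 probe sets of 10 genes, showed no common direction. At 4 h, 5 were higher and 7 lower in transected fish (median -0.02), at 12 h 6 and 6 (median 0.01), and at 11 d 7 and 5 (median 0.23), beside a median of 0 over all probe sets at each time. None passed limma's adjusted test at any time, and 1, 2 and 2 of them had an unadjusted p under 0.05. At 11 d, 0.0452% of all probe sets passed the adjusted test and 4.42% had an unadjusted p under 0.05.

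Besides the members, the highest 11 d differences were those of the alpha tubulin genes tuba4l (0.87 ± 0.38) and tuba5 (0.39 ± 0.16) and of the beta tubulin gene tubb4b (0.32 ± 0.34, and -0.02 without the third sham array at 11 d). On the array level tuba4l gave 52.8, 42.3 and 68.9 in sham and 95.6, 136 and 71.4 in transected fish, without overlap. At 12 h tuba4l had a difference of like size, 0.85 ± 0.38, which also did not pass limma's adjusted test. The lowest were the beta tubulin genes tubb4bl (-0.46 ± 0.27) and tubb2 (-0.09 ± 0.21, and 0.09 without the third transected array at 11 d) and the gamma tubulin gene tubg1 (-0.39 ± 0.21), whose product starts microtubules and is not built along their length.

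The tubb4bl arrays at 11 d gave 3745, 3267 and 3715 in sham and 3106, 2739 and 2044 in transected fish, without overlap. The tubg1 arrays gave 404, 346 and 350 against 329, 232 and 284, also separated. None of these 6 passed at 11 d (limma adjusted p = 0.99 to 1). Of the 12 other tubulin probe sets, 2 were separated downward at 11 d (tubb4bl and tubg1) and 2 upward (tuba4l and tuba5). Downward separations of this kind made up 2.99% of all probe sets at 11 d, and upward ones 2.73%.

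**Figure D4:**
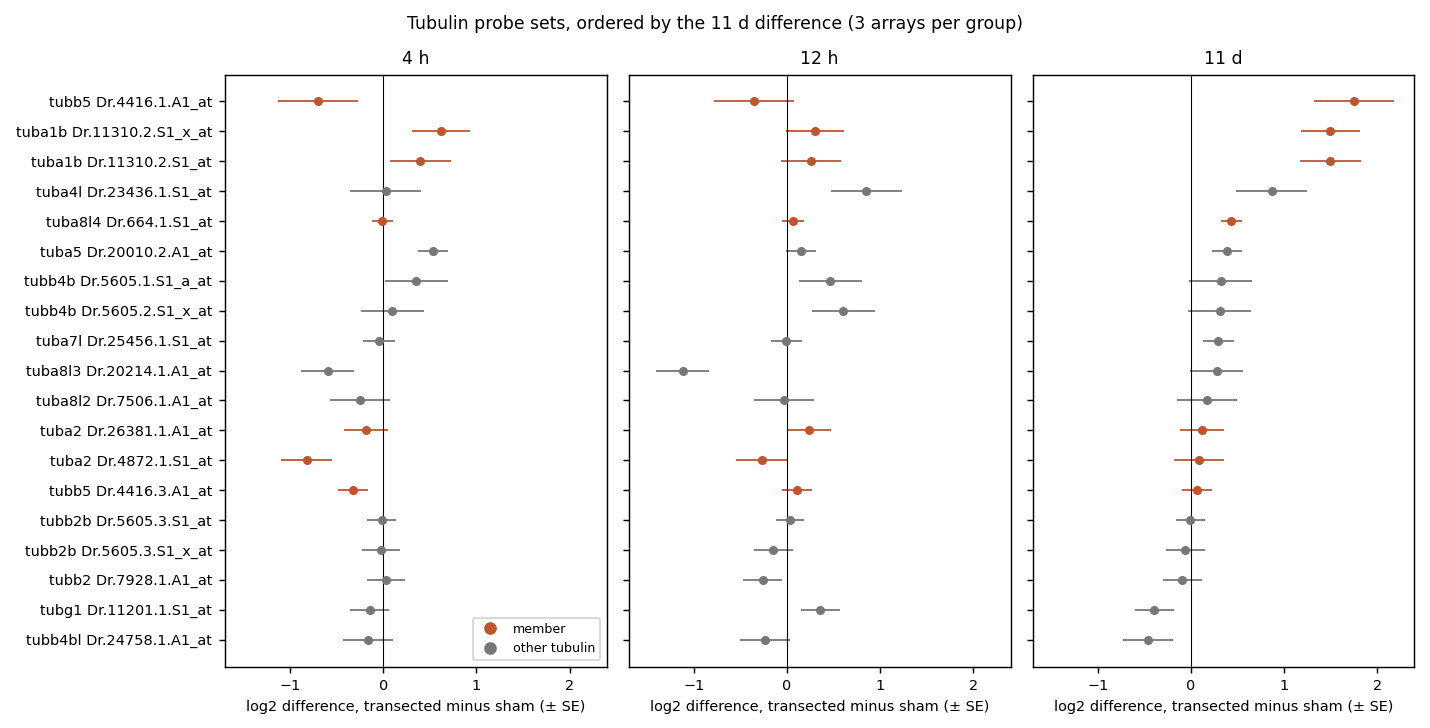
Log2 difference between transected and sham fish (± SE, 3 arrays per group) at 4 h, 12 h and 11 d for the member tubulin probe sets in red and the other tubulins in grey, ordered by the 11 d difference. At 11 d tubb5 (1.75) and both tuba1b probe sets (1.50) stand beyond the other tubulins, of which the highest is tuba4l (0.87) and the lowest tubb4bl (-0.46), and at 12 h tuba8l3 is lowest (-1.12).

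Of the tubulin probe sets, that of the alpha tubulin gene tuba8l3 had the lowest difference at 12 h. It gave 2634, 1724 and 3311 in sham and 888, 1538 and 1070 in transected fish, without overlap. The difference of -1.12 ± 0.28 did not pass (limma adjusted p = 0.587), and 4.72% of all probe sets were separated downward at 12 h. In transected fish it rose from 1135 at 12 h to 3319 at 11 d, by 1.55 ± 0.28 (limma adjusted p = 0.0157, a comparison not planned for this gene). In that comparison 1.17% of all probe sets passed the adjusted test as higher. The GAPDH ratio of transected fish also moved between these times, from a geometric mean of 4.61 to one of 2.24, and its part in the rise was not tested. The call was lost without the first transected array at 12 h (1.37, adjusted p = 0.0693) or without the first or the second transected array at 11 d (0.0576 and 0.0562).

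The alpha tubulin gene tuba5 was higher on all transected arrays at 4 h, with 150, 132 and 124 against 79.7, 105 and 97.2 in sham fish. That difference, 0.53 ± 0.16, did not pass (limma adjusted p = 1). In transected fish it then fell by 0.78 ± 0.16 on the log2 scale from 4 h to 12 h (limma adjusted p = 0.0366, a comparison not planned for this gene). In that comparison 0.568% of all probe sets passed the adjusted test as lower. Over 25 alternatives the difference ran from -0.89 to -0.51 and its adjusted p from 0.0164 to 0.406, with the call lost under 12 of them, and the GAPDH ratio differed between these times as given above. In sham fish the mean of tuba5 also fell between these times, from 93.4 to 70.5, without overlap. The fall was thus not limited to transected fish. Downward separation in sham fish was seen for 4.4% of all probe sets.

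Genes that fold tubulin lay on both sides of 0 at 11 d. Of 20 folding genes measured (of 23 listed: prefoldin, the CCT chaperonin and the tubulin cofactors), the 11 d mean was higher for 11 and lower for 9 (median 0.03). At 4 h the counts were 16 and 4 (median 0.06) and at 12 h 7 and 13 (median -0.13). None passed limma's adjusted test at any of the 3 times, and 0, 4 and 0 had an unadjusted p under 0.05 at 4 h, 12 h and 11 d. Of all probe sets, 2.27%, 4.61% and 4.42% had such a p at these times. At 12 h, 5 of the 20 were separated downward and 1 upward, beside 731 and 709 of all 15502 probe sets. Over the brightest probe set of all 8793 named genes the median was 0 at each time.

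The 3 folding genes with the widest 11 d differences were tbcb (0.38 ± 0.21), a cofactor for alpha tubulin, the prefoldin subunit gene pfdn6 (-0.31 ± 0.28) and txndc9 (0.29 ± 0.32), which acts on the chaperonin. For tbcb, the means were 617 in sham and 444 in transected fish at 12 h, where the groups did not overlap, and 505 and 656 at 11 d, where they did.

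Stathmins and microtubule-associated proteins, which bind or destabilize microtubules, were measured for 18 of 50 listed genes. At 11 d, 8 were higher and 10 lower (median -0.02), and none passed limma's adjusted test, with 2 at an unadjusted p under 0.05. The widest differences were those of map1sa (0.84 ± 0.58, and 0.18 without the third sham array at 11 d, which lay at the floor), map7d1b (0.52 ± 0.14, limma adjusted p = 0.43) and mapre1b (0.48 ± 0.17, 0.835). The gene map7d1b, of a family that links kinesin to microtubules, gave 1153, 1456 and 1169 in sham and 1914, 1569 and 1941 in transected fish. For mapre1b, whose product tracks growing microtubule ends, the arrays gave 372, 379 and 489 against 542, 529 and 655. Both were separated between the groups, and their 3 pairs were all higher, as for 9.85% of all probe sets.

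Transport motors, the kinesins and dynein, were measured for 18 of 40 listed genes. Their 11 d median was 0.05, with 9 higher and 7 lower, none passing limma's adjusted test and 1 at an unadjusted p under 0.05. Subunit genes of dynein, the motor that carries cargo toward the cell body, led the list: dync1h1 (0.61 ± 1.09), dync1i2b (0.58 ± 0.20) and dync1li1 (0.40 ± 0.26). For dync1i2b the arrays gave 145, 170 and 182 in sham and 245, 237 and 256 in transected fish, without overlap (limma adjusted p = 0.751). The dync1h1 difference turned to -0.18 without the third transected array at 11 d.

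Enzymes that modify tubulin or sever microtubules were measured for 11 of 26 listed genes, with 5 higher and 6 lower at 11 d (median -0.05). The widest were the deacetylase gene hdac6 (0.49 ± 0.47, and -0.21 without the third sham array at 11 d), agbl5 (-0.45 ± 0.28), which removes glutamates from tubulin, and the deacetylase gene sirt2 (0.30 ± 0.41). The gamma-tubulin ring complex, the seed of new microtubules, was measured for 4 of 8 listed genes, of which 1 was higher and 3 lower (median -0.04), namely mzt2b (0.23 ± 0.42), tubgcp3 (-0.12 ± 0.15) and nedd1 (-0.05 ± 0.27) among the 3 widest. Leaving out 1 array turned the sign of each of these 3, to -0.03, 0.07 and 0.03. Neither list had a gene past limma's adjusted test or at an unadjusted p under 0.05 at 11 d.

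Genes of neurofilaments and other intermediate filaments were measured for 6 of 12 listed, 4 higher and 2 lower at 11 d (median 0.22). The gene inab, of a neuronal filament protein related to internexin, gave 539, 1039 and 988 in sham and 2213, 1141 and 1847 in transected fish. Its difference of 1.02 ± 0.32 came without overlap but did not pass (limma adjusted p = 0.617). For prph, the peripherin gene, the values were 554, 625 and 622 against 1064, 1045 and 676, also without overlap, with a difference of 0.60 ± 0.34. Of the 6 genes, 2 were separated upward and 1 downward at 11 d, beside 2.73% and 2.99% of all probe sets. The vimentin-like gene viml differed by -0.47 ± 0.44 with overlap. None of the 6 passed limma's adjusted test, and 1 had an unadjusted p under 0.05.

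**Figure D5:**
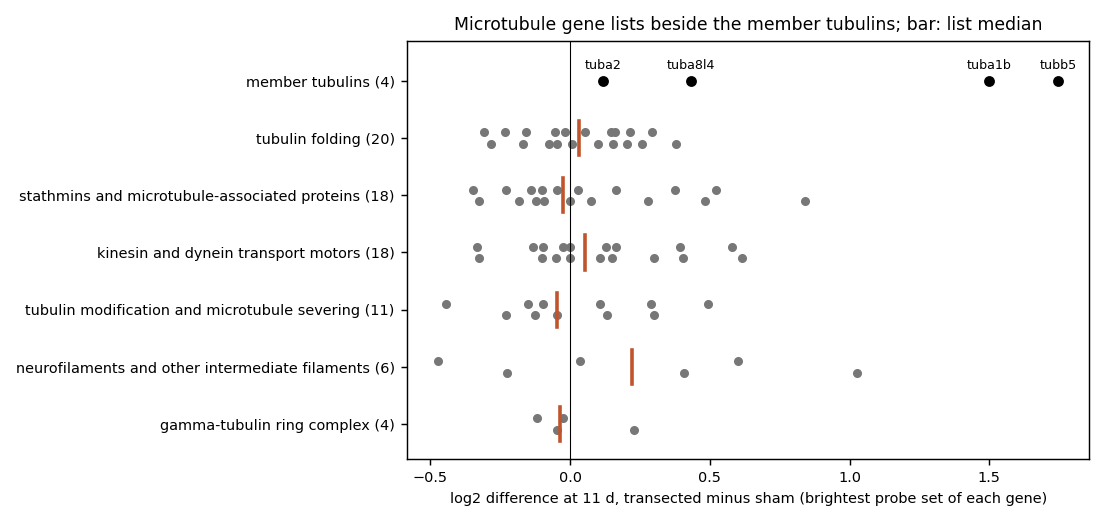
Log2 difference at 11 d between transected and sham fish for the brightest probe set of each member tubulin (black) and of each gene in 6 lists (grey), with the list median as a red bar and the number of genes measured in brackets. The list medians lie between -0.05 and 0.22, and no gene of the lists reaches the 1.50 of tuba1b or the 1.75 of tubb5.

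By Pearson's r over the 18 arrays, among 5893 probe sets of named genes brighter than the median, the genes most like tuba1b were ip6k2b (0.893), tmsb (0.883) and rsph1 (0.879). They differed at 11 d by 0.59 ± 0.14, 1.34 ± 0.23 and 0.88 ± 0.27. The actin-binding thymosin gene tmsb went from 2302 to 5832. Most like tubb5 were thy1 (0.886), a surface glycoprotein gene, fthl30 (0.877), a ferritin heavy chain gene, and the filament gene inab (0.849), which differed by 2.33 ± 0.42, 2.74 ± 0.61 and 1.02 ± 0.32. Neighbours of tuba8l4 were less close, namely plppr3a (0.688), glula (0.673) and aimp2 (0.668), and those of tuba2 were tcta (0.863), esm1 (0.804) and gclc (0.773). The neighbours of tuba1b and tubb5 were picked by likeness to genes that stand highest on the transected 11 d arrays. Nothing is therefore read from their 11 d differences. The arrays share groups, normalization and replicate numbers, so these correlations describe the arrays. The same holds for r = 0.817 between tuba1b and tubb5 and r = 0.332 between tuba1b and tuba8l4.

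Markers of other cells were set beside the members. Of the 14 neuronal markers 10 were higher and 4 lower at 11 d, none passing limma's adjusted test and 1 at an unadjusted p under 0.05, and their summed signal overlapped, at 21760 to 28440 in sham and 21990 to 34020 in transected fish. Microglial and leukocyte markers, 13 of 16 measured, summed to 6567 to 8010 in sham and 9827 to 11230 in transected fish at 11 d, without overlap, 10 being higher and 3 lower. Ependymal and ciliated cell markers, 10 of 18 measured, summed to 919 to 1131 in sham and 1139 to 1280 in transected fish at 11 d and to 919 to 962 and 1025 to 1216 at 4 h, separated at both times, with tekt3 at the floor on all arrays. Both lists moved the same way as tuba1b and tubb5 at 11 d, and the part of those cells in the tubulin differences was not tested.

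Markers of dividing cells, 9 of 10 measured, summed to 326 to 549 in sham and 320 to 404 in transected fish at 11 d, with 0 higher and 8 lower and mcm3 at the floor on all arrays. Radial glial sums overlapped at 11 d, at 17260 to 21110 and 16760 to 22530 over 7 of 11 markers, but 1 marker of that list passed the test. That was cyp19a1b, the aromatase gene of fish radial glia, which fell by 3.64 on the log2 scale, from 395 to 31.6 (limma adjusted p = 0.0119). The call was lost with the replicate number as a block (adjusted p = 0.238) and without the first sham or the first transected array at 11 d (0.0583 and 0.0523). Myelin sums overlapped too, at 17570 to 25580 and 13040 to 24120 over 5 of 11 markers, as did endothelial sums, at 580 to 834 and 461 to 874 over 4 of 10, and erythrocyte sums, at 8320 to 15180 and 6688 to 11570 over 7 of 11. All 7 erythrocyte markers were lower at 11 d, and 1 of them, the heme synthesis gene alas2, fell by 2.29 on the log2 scale (limma adjusted p = 0.0333, and 0.238 with the block), a call lost under 14 of 26 alternatives. No marker of the other 6 lists passed limma's adjusted test at 11 d. At 4 h, 13 of the 14 neuronal markers were lower in transected fish, and 0 were separated between the groups. Over all probe sets, 6494 of 15502 were lower and 6282 higher at that time. The neuronal sums overlapped, at 24910 to 32500 in sham (median 30480) and 17950 to 30960 in transected fish (median 30140). The pairs of tubb5 were lower at 4 h, whereas the brighter tuba1b probe set was higher on all transected arrays. The part of nerve cells in these tubulin differences was not tested.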

How the data were processed

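RNA of 18 laser-captured NMLF samples was hybridized to Affymetrix arrays, 1 array per sample. The deposited table holds linear intensity values, 1 for each probe set on each array, and no source used here names the authors' summary method. The trimmed mean was 149.9 on 16 arrays but only 100.3 (sham) and 92.6 (transected) on the 4 h arrays numbered 3. Values were quantile-normalized over 18 arrays, floored at 16 and log2-transformed, and 115 control probe sets were left out. The model (limma 3.58.1, R 4.3.3) had 6 group means, 12 residual and 0.51 prior degrees of freedom, and Benjamini-Hochberg adjustment over 15502 probe sets at 0.05. It was checked on simulated data. The number of arrays limits precision.

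Members and lists were chosen with earlier results of these data known. The tests planned for tuba2 at 4 h, at 12 h and between these times were dropped, since its choosing value is unknown. Same-numbered sham and transected arrays deviated together at 4 h (r = 0.62, 0.38 and 0.26) and 11 d (0.23, 0.48 and 0.64), so numbers were taken to pair arrays there (all over 0.1), but not at 12 h (0.11, -0.01 and 0.14). At 11 d sham array 2 correlated with transected array 1 at 0.34, above pair 1, so numbers 1 and 2 are not told apart there. Named were all members, other tubulins past the threshold or among the 3 widest rises and falls at 11 d, the 3 list genes with the widest 11 d differences, and the 3 named genes most like each member. The early tuba8l3 and tuba4l values and the tuba5 values at 4 h, and the markers cyp19a1b and alas2, were chosen after they were seen. Tests of tubulins other than the members were planned for transected against sham fish only, so their tests between times were not planned. The symbols of all 20 tubulin probe sets matched RefSeq by gene number. Probe, promoter and protein sequences and coordinates were not used here.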

Additional observations from a re-analysis of the deposited data

Results flagged for a closer look

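For tubb5 (Dr.4416.1.A1_at) the difference between transected and sham fish was -0.70 at 4 h, lower in all 3 same-numbered pairs, and 1.75 at 11 d, higher in all 3 pairs. The 11 d effect was thus 2.45 above the 4 h effect, and this difference was not tested, since the 11 d arrays chose the gene.

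For 2 other genes the injury effect also lay on opposite sides of 0 at 2 times, in all 3 pairs at 4 h and 11 d or without overlap between the groups at 12 h, and the test of the difference between the effects did not pass. The gamma tubulin gene tubg1 had an effect of -0.15 at 4 h, 0.36 at 12 h and -0.39 at 11 d, which differed by 0.50 from 4 h to 12 h and by -0.75 from 12 h to 11 d (limma adjusted p = 1 for both, unadjusted p = 0.116 and 0.027). The tubulin cofactor gene tbcb had an effect of -0.47 at 12 h and 0.38 at 11 d, a difference of 0.85 (limma adjusted p = 1, unadjusted p = 0.0152).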

How the results depend on the processing

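Under all alternatives run, 0 tests of members, other tubulins and listed microtubule genes were called between transected and sham fish (limma). The same held for the tests of tuba1b, tubb5 and tuba8l4 between 12 h and 4 h. The median 11 d difference over the brightest probe sets of the 4 members was 0.97, with a range of 0.81 to 1.05. Leaving out single arrays moved the 11 d difference of tuba1b (Dr.11310.2.S1_x_at) between 1.39 and 1.69, that of tubb5 between 1.23 and 2.20 (the highest with both 11 d arrays numbered 3 left out), and that of tuba2 (Dr.26381.1.A1_at) between -0.08 and 0.37. The 4 h difference of tuba1b ran from 0.34 to 0.84 over all alternatives. The 4 h difference of tuba2 (Dr.4872.1.S1_at) ran from -1.02 to -0.60 and that of tubb5 from -0.98 to -0.41. The hdac6 difference at 11 d ran from -0.21 (reversed, without the third 11 d sham array) to 0.89 (without the second), and the cause was not tested. With floor 8 the dim tubb5 probe set differed by 0.35 at 11 d. The replicate block changed no call of a member, another tubulin or a listed microtubule gene between transected and sham fish. Over all probe sets it left 0, 2 and 6 calls at 4 h, 12 h and 11 d, against 0, 4 and 7 without it. With the dimmest probe sets left out (the lowest of 3 equal parts) there were 15 calls at 11 d, with the block as well 43 (chosen after seeing the data), with floor 32 14, without the third sham or transected 11 d array 18 and 21, and without both 28. Leaving out single arrays gave 0 to 4 calls at 4 h, 4 to 29 at 12 h (the highest without the third transected 12 h array) and 6 to 21 at 11 d. For 12 h against 4 h it gave 0 to 6 in sham fish, against 4, and 34 to 280 in transected fish, against 191. Floors of 32 and of 8 gave 2 calls each at 4 h, and at 12 h there were 0 without the dimmest probe sets. Of 4 h to 12 h changes in transected fish, tubg1 passed only on the deposited scale (0.73, adjusted p = 0.0494).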
